A study of Danio rerio with 4 samples.

Results

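Cytosolic ribosomal protein genes encode the proteins that, with ribosomal RNA, build the large and the small subunit of the ribosomes that translate nuclear mRNAs. They were taken from the deposited table of gene counts by symbol: names that start with rpl or rps and a digit, and rplp0, rplp1, rplp2, rplp2l and rpsa, without the rps6k kinases, rps27l, rpl22l1 and rpl7l1. The rule matched 80 of 28290 gene models, of which 23607 carried a symbol. The large subunit had 45 of the matches and the small subunit 34. The remaining match, rps19bp1, is named for a protein that binds RPS19 and encodes no ribosomal protein, so it is described apart and the counts are over the other 79 genes. Capitals in a symbol follow the reference table of names, and genes that share a symbol carry their Ensembl identifier.

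The RNA came from whole wild-type (WT) zebrafish (*Danio rerio*) embryos. There were 2 control libraries and 2 libraries of embryos exposed at 8 µg/L to SYP-3343, a compound known here by its code. The window from 3 to 24 hours post-fertilization was the same for both groups. All embryos shared the same wild-type background, and the series' title puts the question as harm to development through reactive oxygen species and mitochondria. The labels number the replicates of each group 1 and 2 as biological without naming clutches or tanks, so a p-value here speaks of the spread between these samples only. The design text gives 40 embryos without saying whether for a library or a group, so each library is a pool of unstated size.

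Every ribosome needs 1 copy of nearly every ribosomal protein, and unused ribosomal proteins are degraded. In vertebrates the mRNAs of these proteins begin with a terminal oligopyrimidine tract (TOP), through which the mTORC1 kinase pathway controls their translation as a group. Growing embryonic tissue transcribes these genes at high levels, and zebrafish with mutations in single ribosomal protein genes have defects of growth and blood formation.

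The libraries held 46165614 to 59054470 counts, and log2 CPM (counts scaled to a common library size) correlated across genes with r from 0.984 to 0.985 between groups and up to 0.997 within them. Genes are not independent replicates. Of 32 marker genes of 6 embryonic tissues, 31 reached 1 CPM in every library. RNA of these tissues was thus present, but this low bar cannot tell whole embryos from a partial sample. The 20 most counted genes took 10.1% and 10.2% of the control counts and 14.5% and 15.3% of the SYP-3343 counts. Of 22647 genes tested, edgeR's quasi-likelihood F test with Benjamini-Hochberg adjustment called 3770 higher and 3455 lower in SYP-3343 at an adjusted p under 0.05.

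In exposed embryos 77 of the 79 ribosomal protein genes rose and 0 fell, where 16.6% of all genes tested rose and 15.3% fell. All 79 passed the filter on low counts, and none had a log2 fold change below 0. Thus edgeR gave 0 lower at an unadjusted p under 0.05, and DESeq2 and limma-voom gave 0 lower after adjustment. DESeq2 called 76 members higher and limma-voom 77. All 45 large subunit genes rose, with a median log2 fold change of 0.87, and 32 of 34 small subunit genes rose, with a median of 0.88. The median member was 1.83-fold higher (log2 fold change 0.88), against a median of -0.01 over all genes tested. Both SYP-3343 libraries lay above both controls for 78 of 79 members, compared with 32.2% of all genes tested. The adjusted p-values of the 77 called members ran from 1.45e-07 to 0.00148 by edgeR's quasi-likelihood test. Among the 1494 genes with a mean of at least 100 CPM, 42.3% rose and 10.6% fell, with a median log2 fold change of 0.18. The 77 members that rose were all among these abundant genes, with mean levels from 114 CPM upward. Because the RNA is from whole embryos, a change in the number of cells of a type and a change in RNA per cell cannot be told apart.

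**Figure D1:**
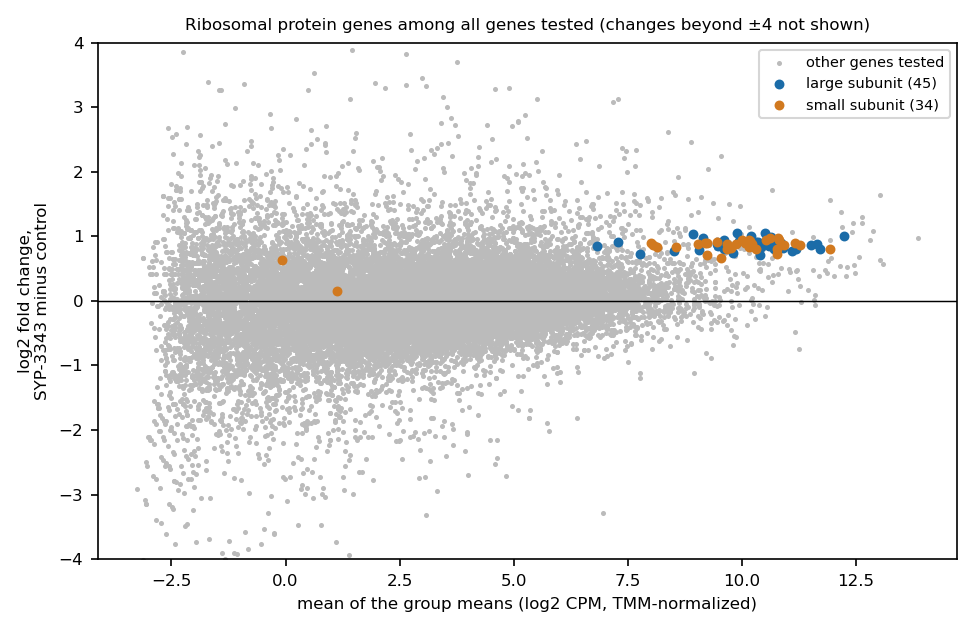
Log2 fold change (SYP-3343 minus control) against mean log2 CPM for all genes tested, with the ribosomal protein genes in colour by subunit; changes beyond ±4 are not shown. The 77 members with at least 100 mean CPM form a band between 0.66 and 1.05, while the genes tested are centred near 0.

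The size of the rise was alike across the members. Among the 77 abundant members the log2 fold changes ran from 0.66 to 1.05 with an SD of 0.079. The median standard error of a single member's value was 0.12. That error also holds shifts that the members of a library share, so it does not gauge differences between members. Over all 79 members the SD was 0.115. Over all 22647 genes tested the SD was 0.70, and over the 1494 genes with a mean of at least 100 CPM it was 0.51. A log2 fold change at or above the lowest of these 77 members was seen in 9.04% of genes tested, and one at or above the member median in 5.48%. For each abundant member the lower SYP-3343 library was above the higher control library, by 1.14-fold to 1.79-fold with a median of 1.59-fold. Both SYP-3343 libraries were also above both controls for 882 of the 1494 genes with a mean of at least 100 CPM. Only 4 of the 79 members reached a 2-fold rise, namely rplp2l, RPL11, RPL39 and RPLP0, all of the large subunit.

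**Figure D2:**
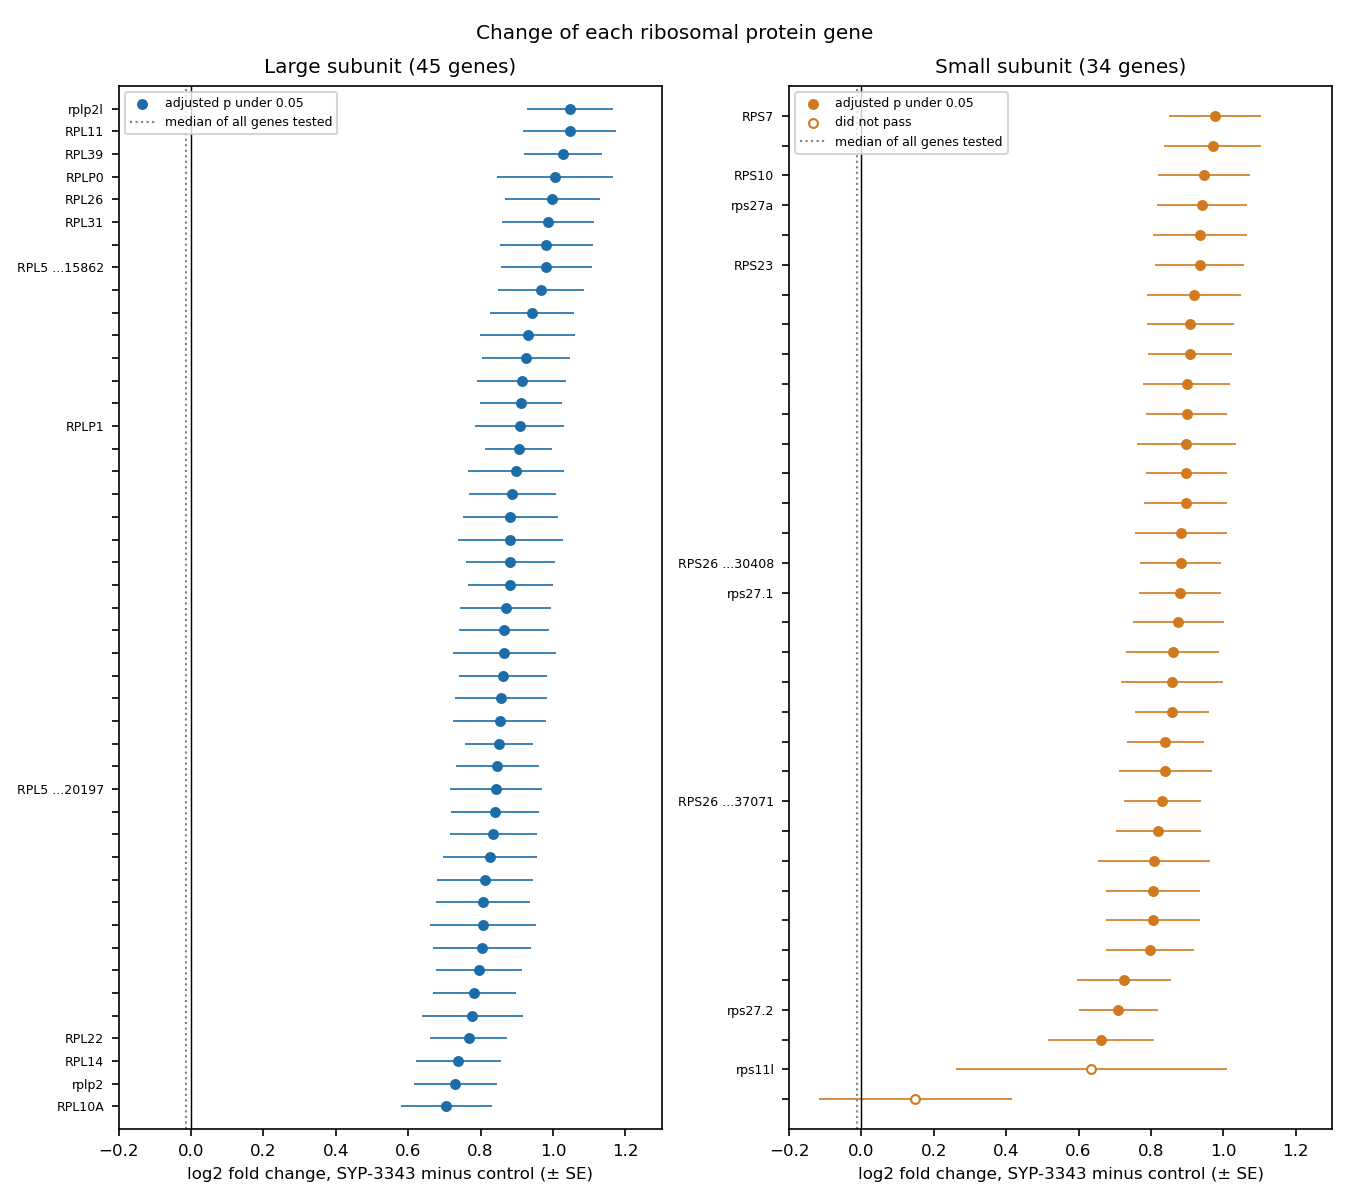
Log2 fold change (SYP-3343 minus control) of each of the 45 large and 34 small subunit genes, ordered by size, with bars for ± 1 SE, filled points for an adjusted p under 0.05 and a dotted line at the median of all genes tested; genes named by rule in the text are labelled, copies with the end of their identifier. All large subunit genes lie between 0.70 and 1.05, and the open points are the 2 small subunit genes that did not pass.

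Together the 79 genes took a larger part of the sequenced mRNA. Their part of all counts was 8.31% and 7.55% in the controls (replicate 1, then replicate 2) and 11.0% and 12.0% in the exposed libraries. Both exposed libraries were above both controls, with means of 7.93% ± 0.538 (SD, n = 2) and 11.5% ± 0.714 (SD, n = 2), a difference of 3.60 percentage points. The exact two-sided permutation test gave p = 0.333, the smallest p that 2 against 2 libraries allow. These shares need no scaling factor. The large subunit genes held 5.11% and 4.66% in controls, then 6.84% and 7.43%, and the small subunit genes 3.20% and 2.88%, then 4.18% and 4.60%.

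The balance between the subunits did not separate the groups. The ratio of large to small subunit counts was 1.60 and 1.62 for the controls, then 1.64 and 1.62 after exposure. On the log2 scale the group means differed by 0.016, the groups overlapped, and the exact two-sided permutation test gave p = 0.667. The median log2 fold change of large subunit genes minus that of small subunit genes was -0.01, and its sign changed with the replicate number as a block (0.0013) and without control replicate 2 (0.0094). With 2 libraries a group no test of this kind can pass 0.05, so the values do not show that the balance was equal.

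**Figure D3:**
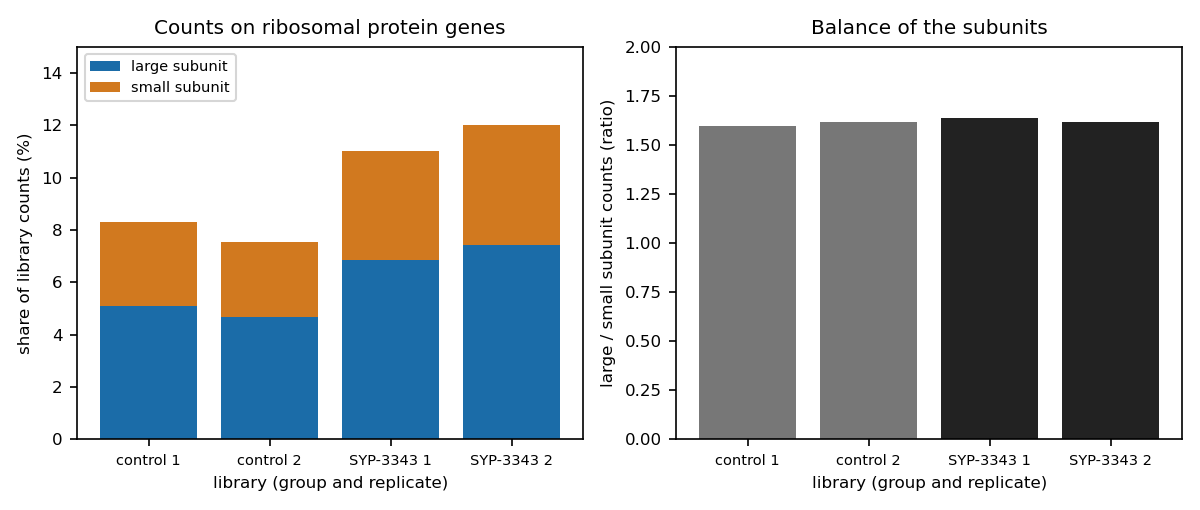
Percent of each library's counts on large and small subunit genes (left, axis from 0) and the ratio of large to small subunit counts (right), 1 bar per library. The shares are higher in both SYP-3343 libraries, and the ratio stays between 1.60 and 1.64.

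Replicates of a group also differed in these genes together. Control replicate 1 was above control replicate 2 for 77 of the 77 abundant members, by a median of 0.19 on the log2 CPM scale. SYP-3343 replicate 2 was above replicate 1 for 76 of 77, by a median of 0.22, with RPL26 the exception. Over all genes tested the same medians were 0.01 and -0.0015. The members moved together within groups too, so they are not independent of each other. Leaving out 1 library at a time put the median member between 0.76 and 0.98 (log2), with 76 or 77 members called. The call that was lost was that of RPS2, a protein of the mRNA entry channel of the small subunit, named here after its value was seen, without control replicate 2 (adjusted p = 0.0632 by edgeR's quasi-likelihood test).

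Among large subunit genes the stalk proteins covered most of the range. The stalk is the flexible arm that recruits and activates the elongation factors. RPLP0, its base, was at 3403 and 3013 CPM in controls and 5858 and 7026 CPM in SYP-3343, a log2 fold change of 1.01 ± 0.16 (SE). The exposed libraries were both far above the controls. RPLP1, a tip protein, was at 943 and 866 CPM in controls and 1554 and 1840 CPM in SYP-3343 (log2 fold change 0.91). The other tip protein has a pair of genes. Of these, rplp2l was at 660 and 588 CPM in controls and 1184 and 1393 CPM in SYP-3343, the largest rise of all 79 members (1.05 ± 0.12 on the log2 scale, SE), and rplp2 was at 180 and 146 CPM, then 239 and 301 CPM, among the smallest rises of the large subunit (0.73 ± 0.11, SE). All these genes rose without overlap of the groups.

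RPL5 and RPL11 enter the ribosome together with 5S ribosomal RNA, and outside the ribosome the same complex is known to bind the p53 regulator Mdm2. RPL11 was at 1010 and 886 CPM in controls and 1803 and 2112 CPM in SYP-3343, a log2 fold change of 1.05. RPL5 has a pair of genes in the table: ENSDARG00000015862 went from 1075 and 970 CPM to 1865 and 2174 CPM (0.98), and ENSDARG00000020197 from 994 and 907 CPM to 1533 and 1874 CPM (0.84). Every exposed value exceeded every control value for all of these.

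RPL39, RPL26 and RPL31 made up the rest of the 6 largest rises of the large subunit. RPL39, a very small protein in the wall of the tunnel through which the new peptide leaves, was at 343 and 297 CPM in controls and 611 and 694 CPM in SYP-3343 (log2 fold change 1.03). RPL26, at the tunnel's rim, was at 893 and 670 CPM in controls and 1579 and 1542 CPM in SYP-3343 (1.00). RPL31, also at the rim, was at 1037 and 962 CPM, then 1815 and 2143 CPM (0.99). For RPL26 the controls were further apart than the exposed libraries, and no group overlapped. RPL10A, a protein of the mobile L1 stalk next to the exit site of transfer RNAs, had the smallest rise of the large subunit: 1093 and 945 CPM in controls, 1542 and 1780 CPM in SYP-3343 (0.70 ± 0.13, SE). RPL14 (0.74) and RPL22 (0.77), which bind ribosomal RNA on the subunit's surface, also lay at the low end, all past the threshold by edgeR's quasi-likelihood test.

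Small subunit genes gave the same picture at the top of their range. RPS7, needed to process the RNA of the small subunit, was at 1143 and 980 CPM in controls and 1979 and 2199 CPM in SYP-3343 (log2 fold change 0.98). RPS10, at the mRNA entry side and a target of ubiquitin when ribosomes collide, was at 1064 and 956 CPM, then 1797 and 2094 CPM (0.95). In both the exposed libraries stood well clear of the controls. rps27a, made as a fusion of ubiquitin and a ribosomal protein, rose from 832 and 739 CPM to 1364 and 1649 CPM (0.94). RPS23, which lies at the decoding centre, rose from 743 and 671 CPM to 1212 and 1492 CPM (0.93). RPS9, a protein of the mRNA entry channel named after its value was seen, was at the low end with 1397 and 1234 CPM in controls and 2031 and 2320 CPM in SYP-3343 (0.73).

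No row carried the symbol rpsa, the name of a small subunit protein near the mRNA exit. RPSA2, the row with the nearest symbol, lies outside the rule and was at 2768 and 2563 CPM in controls and 4614 and 5571 CPM in SYP-3343, a log2 fold change of 0.93 ± 0.15 (SE) with an adjusted p of 6.93e-05 by edgeR's quasi-likelihood test. One reference name that fits the rule, rps20, had no row among the deposited counts, so it could not be analysed. The non-ribosomal match rps19bp1 was at 9.48 and 9.26 CPM in controls and 12.5 and 14.7 CPM in SYP-3343, a log2 fold change of 0.54 ± 0.13 (SE, adjusted p = 0.00336 by edgeR's quasi-likelihood test). That call was lost without SYP-3343 replicate 2 (0.41, adjusted p = 0.0801 by the same edgeR test) and with scaling by library size alone (0.20, adjusted p = 0.25).

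The 2 members that did not pass were scarce small subunit genes. rps11l was at 0.82 and 0.67 CPM in controls and 1.1 and 1.2 CPM in SYP-3343 (log2 fold change 0.64 ± 0.37, SE, adjusted p = 0.209 by edgeR's quasi-likelihood test). Both exposed libraries were above both controls. The SE was too wide to tell this change from no change or from the rise of the abundant members.

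Zebrafish keep duplicate genes from an ancient doubling of the fish genome, and several members share a protein number with another. The sources used here do not say how reads that match several places were counted, so values of near-identical copies are uncertain. Of the counts on the RPL5 pair, ENSDARG00000015862 held 51.9% and 51.7% in controls, then 54.9% and 53.7%. rps27.1 held 55.4% and 55.6% of its pair with rps27.2 in controls, and 58.9% and 57.9% in SYP-3343. rplp2l held 78.6% and 80.1% of its pair with rplp2 in controls, and 83.2% and 82.2% in SYP-3343. In these pairs the copy with the larger share in controls held a still larger share in both exposed libraries. The RPS26 pair differed less, with ENSDARG00000030408 at 64.3% and 65.0%, then 65.1% and 65.7%. The groups did not overlap in these 4 pairs, and each had the exact two-sided permutation p of 0.333, the smallest possible here. These shares are not corrected for gene length, so they compare libraries, not copies.

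**Figure D4:**
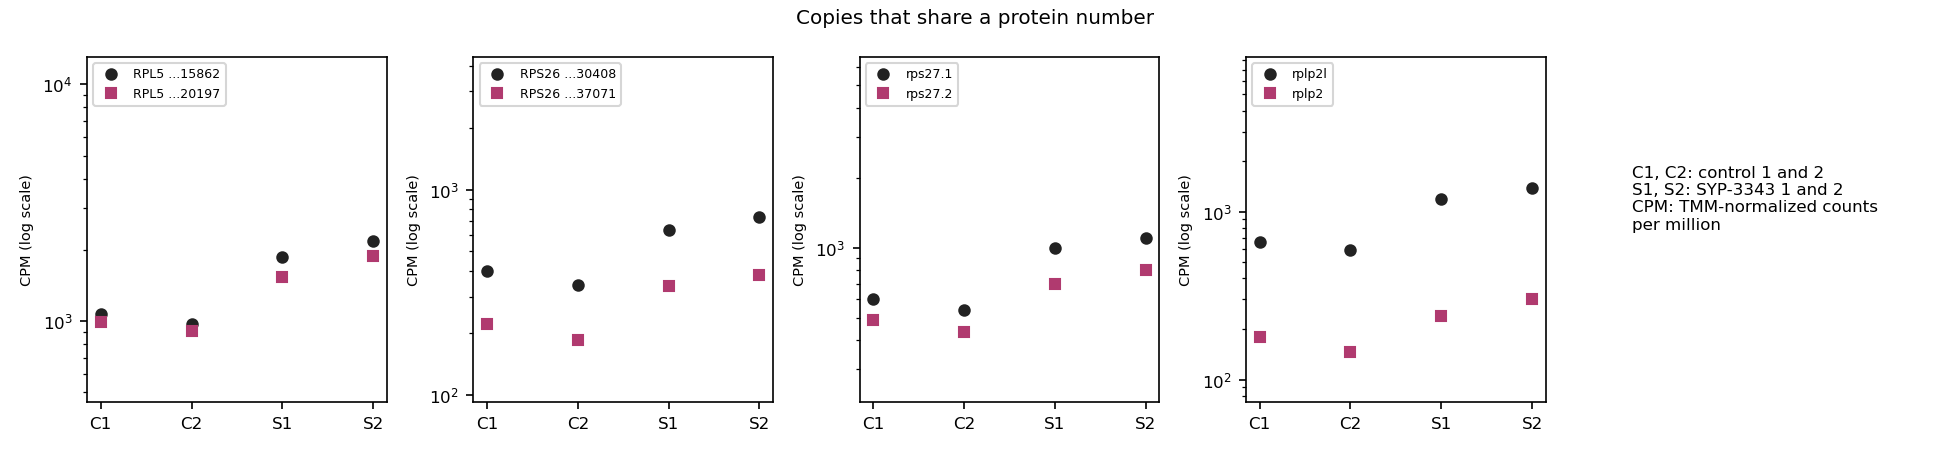
TMM-scaled CPM (log axis) of both copies in control replicates 1 and 2 (C1, C2) and SYP-3343 replicates 1 and 2 (S1, S2), 1 panel for each of 4 pairs of members that share a protein number. In each pair both copies are higher in both exposed libraries than in both controls.

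All copies in these pairs passed the threshold by edgeR's quasi-likelihood test. The copies rps27.1 and rps27.2 were at 605 and 540 CPM and at 487 and 432 CPM in controls, and at 1002 and 1104 CPM and 701 and 803 CPM in SYP-3343 (log2 fold changes 0.88 and 0.71). The RPS26 copies rose by 0.88 and 0.83 on the log2 scale.

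To compare members with each other, the same test was fitted with the ribosomal protein total of each library as its size, a choice made after the data were seen. Of 79 members 1 was then higher and 1 lower. The higher one was RPLP0 (0.13 ± 0.060 on the log2 scale, SE, adjusted p = 0.0422 by edgeR's quasi-likelihood test). On that scale 1.43% of all genes tested were higher and 77.3% lower. The adjustment ran over all genes tested, so with most of them called it was mild for values near the threshold. It was not an adjustment for the choice among the 79 members. RPLP0 made up 4.54% of ribosomal protein counts in both controls, and 4.91% and 5.02% in SYP-3343. RPLP0 was no longer called without either SYP-3343 library or with the replicate block, and the count of lower members was 0 without control replicate 1 or with the block. RPL11 (0.17 ± 0.089, SE, adjusted p = 0.0708) and RPL10A (-0.17 ± 0.091, SE, adjusted p = 0.0763) did not pass on this scale by the same edgeR test.

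Ribosomal proteins and close relatives whose names fall outside the rule were described beside the members: 6 of 7 rose and 0 fell by edgeR, with all 7 log2 fold changes above 0 and a median log2 fold change of 0.81. RACK1, a signalling scaffold on the small subunit, was at 2125 and 1937 CPM in controls and 3686 and 4353 CPM in SYP-3343 (0.99). FAU, which encodes a ubiquitin-like protein fused to a ribosomal protein, rose by 0.81 on the log2 scale, and faub by 0.57. Among the paralogs, rps27l, a p53 target in mammals, was at 27.5 and 22 CPM, then 57.4 and 60.7 CPM, with a log2 fold change (1.26 ± 0.11, SE) above that of every member. RPL22L1, the paralog of RPL22, rose by 0.69. RPL7L1, an assembly factor related to RPL7, did not pass (0.07 ± 0.094, SE), and with library size alone it was lower (-0.27, adjusted p = 0.0354 by edgeR's quasi-likelihood test).

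Elongation factors carry transfer RNAs to the ribosome and move it along the mRNA, and in mammals many of their mRNAs carry the same TOP start. Of 16 genes in this list 8 rose and 3 fell, with a median log2 fold change of 0.44. Beside them stood 16.6% higher and 15.3% lower over all genes tested, and 42.3% and 10.6% over genes of at least 100 CPM. Not all the genes listed encode such factors: EEF2K, a kinase of eEF2 named after its value was seen, was among the rises (0.62). The subunits of the exchange complex of elongation factor eEF1A rose: EEF1D (1.07), EEF1B2 (1.03), EEF1G (1.06) and eef1da (0.75). EEF1G was at 1482 and 1367 CPM in controls and 2767 and 3191 CPM in SYP-3343. Those that fell were named after their values were seen. They were EEFSEC, the factor for selenocysteine (-0.70), EEF1A1 ENSDARG00000069951 (-0.57) and EEF1E1, a scaffold of tRNA synthetases (-0.30). This EEF1A1 gene was scarce, at 8.37 and 7.46 CPM in controls and 5.52 and 5.08 CPM in SYP-3343. The other EEF1A1 gene, ENSDARG00000039502, also named afterwards, was at 28.6 and 26.3 CPM in controls and 35.7 and 30.3 CPM in SYP-3343. That gene did not pass (0.27, adjusted p = 0.0564 by edgeR's quasi-likelihood test). A far more abundant eEF1A gene, eef1a1l1, also named afterwards, rose from 10292 and 9809 CPM to 18155 and 21183 CPM (0.97).

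Of 31 other genes listed for TOP mRNAs in mammals, 20 rose and 2 fell (median log2 fold change 0.44). The shares to set beside these were the same 16.6% and 15.3% of all genes tested and 42.3% and 10.6% of abundant genes. The list holds relatives such as nacad and BTF3L4, and the TOP start of each mRNA was not checked. The rises with the smallest adjusted p were those of nop53, a factor of large subunit assembly (1.35), EIF3L, an initiation factor subunit (1.11), and BTF3 and naca, the subunits of the complex that meets new peptides at the ribosome (1.24 and 1.14). naca was at 758 and 670 CPM in controls and 1523 and 1636 CPM in SYP-3343. The 2 that fell, nacad (-0.57) and hnrnpa0b (-0.33), were named after their values were seen. BTF3L4, also named afterwards, did not pass (0.06, adjusted p = 0.651 by edgeR's quasi-likelihood test). In the 37 chaperones of ribosomal proteins and factors of late subunit assembly 21 rose and 0 fell by edgeR (median 0.36; 1 lower at an unadjusted p under 0.05, and 0 by DESeq2 or limma-voom), where 16.6% of all genes tested rose and 15.3% fell. Those with the smallest adjusted p were GTPBP4, a GTPase of the large subunit precursor (1.60), nop53, RSL24D1 (1.33) and BOP1 (1.15). GTPBP4 was at 162 and 137 CPM in controls and 447 and 459 CPM in SYP-3343.

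Genes of the mTORC1 pathway and of proteins that bind TOP mRNAs gave 11 rises and 0 falls in 27 genes by edgeR, with a median log2 fold change of 0.22, beside 16.6% higher and 15.3% lower over all genes tested and 42.3% higher among abundant genes. At an unadjusted p under 0.05 there was 1 fall, and DESeq2 and limma-voom called 0. Those with the smallest adjusted p were TSC2 (0.81), TSC1 ENSDARG00000057918 (0.73), akt1s1 (0.76) and EIF4EBP3 ENSDARG00000041607 (0.82). TSC1 and TSC2 together restrain mTORC1, akt1s1 is an inhibitory subunit, and EIF4EBP3 is a repressor of initiation that mTORC1 inactivates. The 11 rises were not of inhibitors alone: rps6kb1a (0.59) and RPTOR (0.37), named after their values were seen, were also called. The related rps6kb1b, also named afterwards, did not pass (-0.17, adjusted p = 0.156 by edgeR's quasi-likelihood test). The other TSC1 gene, ENSDARG00000026048, was named after its values were seen. It was at 45.6 and 44.0 CPM in controls and 39.0 and 40.6 CPM in SYP-3343. This gene did not pass (-0.17, adjusted p = 0.174 by edgeR's quasi-likelihood test). LARP1, which binds TOP mRNAs and was named after its values were seen, was at 71.4 and 77.8 CPM in controls and 60.5 and 66.3 CPM in SYP-3343 and did not pass (-0.24, adjusted p = 0.057 by edgeR's quasi-likelihood test). MTOR itself, also named afterwards, did not pass (0.15, adjusted p = 0.216 by the same edgeR test).

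In the list of ribosome hibernation, collision and rescue 9 of 24 genes rose and 3 fell, with a median log2 fold change of 0.20. Over all genes tested 16.6% rose and 15.3% fell, and among abundant genes 42.3% rose and 10.6% fell. GTPBP1 ENSDARG00000053467, a GTPase that acts with ribosomes on stalled translation and on mRNA decay, was at 66.2 and 69.6 CPM in controls and 383 and 299 CPM in SYP-3343, a log2 fold change of 2.33 ± 0.11 (SE), the largest of all genes in these lists. RNF14 ENSDARG00000078683, a ubiquitin ligase for stalled ribosomes, rose by 0.94. SERBP1, which sits on idle ribosomes, rose by 0.72, and EDF1, a sensor of collisions, by 0.51. Of the other RNF14 genes, named after their values were seen, ENSDARG00000104631 rose by 1.21 from 0.63 and 0.54 CPM. ENSDARG00000043905 was at 25.2 and 21.1 CPM in controls and 27.6 and 26.0 CPM in SYP-3343. It did not pass (0.22, adjusted p = 0.136 by edgeR's quasi-likelihood test). Nor did serbp1b, also named afterwards (0.23, adjusted p = 0.0616 by the same edgeR test). The other GTPBP1 gene, ENSDARG00000042900, did not pass (-0.19, adjusted p = 0.309 by edgeR's quasi-likelihood test). The 3 that fell were EIF4E2 (-0.60), TRIP4 (-0.54) and G3BP1 (-0.40), like that gene named after their values were seen.

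**Figure D5:**
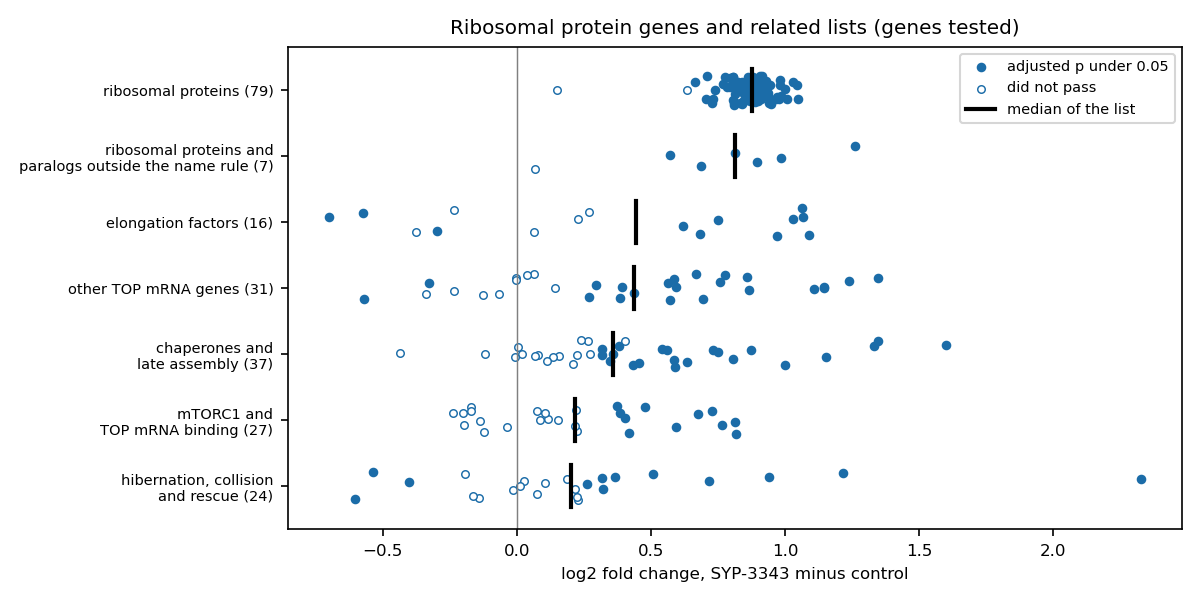
Log2 fold change (SYP-3343 minus control) of each gene tested in the ribosomal protein genes and 6 related lists, with filled points for an adjusted p under 0.05 and a bar at the median. The ribosomal protein genes lie in a narrow band around 0.88, while the other lists, apart from the 7 ribosomal proteins and paralogs, spread from below 0 to above 0.8 with lower medians.

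The scaling between libraries set the size of these changes. The TMM factors were 1.11 and 1.14 for the controls and 0.923 and 0.860 for SYP-3343, and with library size alone the median over all genes tested fell from -0.01 to -0.35. The distance of the ribosomal protein median from that of all genes was 0.89 under both scalings. Scaling factors shift all genes nearly alike, so this distance could hardly change and is no check on the scaling. With library size alone the ribosomal protein median was 0.54, with 77 members still called higher. The calls over all genes then split into 1406 higher and 9382 lower, and with upper-quartile factors into 3042 higher and 4462 lower, in place of 3770 and 3455. Under library size alone the related lists changed their split: the TOP mRNA genes to 14 higher and 9 lower, the assembly list to 11 and 5, the mTORC1 list to 4 and 9, and the hibernation list to 3 and 10. The elongation factor list was at 8 higher and 3 lower, and the relatives outside the rule were at 5 and 1.

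The summed levels of some tissue markers separated the groups as well. Such separation was common: of 22647 genes tested, 7300 were above both controls in both SYP-3343 libraries and 7637 below. A sum weighs its most abundant markers most. The summed level of 5 skeletal muscle markers was 8392 and 8522 CPM in controls and 11342 and 13909 CPM in SYP-3343, and that of 5 epidermis and hatching gland markers 5201 and 5074 CPM, then 9483 and 10476 CPM. The 6 notochord markers were at 3420 and 3348 CPM, then 2476 and 2565 CPM. The 4 red blood cell markers were at 3227 and 2791 CPM, then 3347 and 3969 CPM, so both exposed libraries were above both controls there too. The groups overlapped for the markers of neurons (758 and 863 CPM, then 839 and 925 CPM) and of heart (154 and 153 CPM, then 146 and 155 CPM). The part of these differences in the ribosomal protein result was not tested.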

How the data were processed

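The deposited values are read counts per gene, which the authors left as whole numbers and did not normalize. Per the labels, TRIzol served for extraction, poly-T beads for selection of mRNA and a NEBNext Ultra kit for the libraries. The submitters' processing notes name the build GRCz11 and the tools DESeq2 1.14.1, featureCounts 1.6.2, HTSeq, HISAT2 and TopHat2, but not what each did. Annotation and strand setting: not given in the sources used here.

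Genes were kept by filterByExpr, scaled by TMM and tested two-sided with edgeR's quasi-likelihood F test on all 4 libraries, with Benjamini-Hochberg adjustment over 22647 genes. CPM values use TMM-scaled library sizes. The SE given is the absolute log2 fold change divided by the square root of the F statistic. Symbols came from the reference table of gene names. A list or marker symbol without an exact match was matched without its final a or b, so it could bring in several genes. The 4 notochord symbols thus gave 6 genes. Members, lists and tests were chosen with earlier results of these data known. Genes named were members that did not pass, the 6 largest and 4 smallest changes of each subunit, copies, stalk proteins, RPSA2, the 4 smallest adjusted p-values of each other list, and all relatives outside the rule. Some genes that this rule names are left out here. No sequences are printed.

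Per-library values were compared with exact permutation tests. Alternatives were RLE, upper-quartile and library-size scaling, TMM without ribosomal protein genes, no low-count filter, 1 CPM in 2 libraries, limma-voom, DESeq2's Wald test, robust and legacy quasi-likelihood fits, a replicate block, each library left out, an adjusted p of 0.01 and a log2 fold change of at least 0.5. The legacy fit and the fit relative to the ribosomal protein total were added after the data were seen. Where 1 library was left in a group, its spread was taken from the other group. The fit was checked with simulated counts. Analyses used R 4.3.3, edgeR 4.0.16, limma 3.58.1, DESeq2 1.42.0 and Python 3.11.15 with pandas 2.3.3, numpy 2.4.6, scipy 1.17.1 and matplotlib 3.10.9.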

Additional observations from a re-analysis of the deposited data

How the results depend on the processing

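Over all genes, calls were 1406 higher and 9382 lower with library size alone, 2257 and 2200 with a log2 fold change of at least 0.5, and 2039 lower at an adjusted p under 0.01. The ribosomal protein median was 0.54 with library size alone. The share difference was 5.90 points over totals times the TMM factor. The log2 ratio of the subunits differed by 0.043 as a mean of log2 CPM over members. The large minus small median was 0.0013 with the replicate block. Each library left out in turn gave 2873 to 3611 genes higher and 2483 to 3115 lower, 76 to 77 ribosomal protein genes higher and 0 lower, 45 large and 31 to 32 small subunit genes higher, a median of 0.76 to 0.98, a large minus small median of -0.014 to 0.0094, a share difference of 3.09 to 4.10 points and a log2 subunit ratio difference of 0.0066 to 0.026. Relative to the ribosomal protein total it gave 0 to 2 members higher and 0 to 1 lower.

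The labels give both groups replicates 1 and 2 without a shared batch. Deviations of same-numbered libraries correlated at -0.027 across genes, so no pairing by number was seen. With 2 libraries a group this value cannot exclude other batches. With the replicate block 77 ribosomal protein genes were higher and 0 lower, and 3763 and 3485 genes in all, while relative to the ribosomal protein total 0 members were higher and 0 lower.

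RPL7L1 was at 0.07 as reported, at -0.0014 with upper-quartile factors and at -0.27 with library size alone. EDF1 (adjusted p = 0.138) and faub (adjusted p = 0.162) were not called with library size alone by edgeR's quasi-likelihood test. Of the values under these alternatives of the 49 genes named by rule and reported, 729 kept direction and call, 4 lost the call and 2 changed sign. RPS2, named afterwards and not in that tally, lost its call without control replicate 2. The cause was not tested. With 2 libraries a group, the permutation tests cannot pass 0.05. For rps11l, near 1 CPM, the SE was too wide to tell its change from no change or from the rise of the abundant members.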
